A study of Mus musculus with 8 samples.

Results

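The genes described here are Nfkbia, Tnfaip3, Tnip1, Rel, Traf3, Traf5 and Map3k14, a subunit, 3 inhibitors and 3 upstream adaptors or kinases of the transcription factor NF-kappaB. They were chosen by name, with earlier results of these data known. Of the 7, 6 had a probe set annotated to that 1 gene, out of 6986 named genes in all, and each of the 6 had 1 such probe set. Traf3 was not analysed here. The cells were CD4+CD25+ T cells, a fraction rich in regulatory T cells (Treg), taken by flow cytometry from the para-aortic nodes, which drain the uterus, on day 9.5 post coitus, and their RNA was read on Affymetrix Mouse Gene ST arrays. Dams of the IL10-/- group were backcrossed through a C57BL/6 (B6) colony and had oxytetracycline in their water at 2 mg/ml to keep colitis away. Dams of the IL10+/+ group were C57BL/6, and no antibiotic is stated for them. Genotype, breeding and antibiotic therefore cannot be told apart. Each group had 4 arrays, each a separate pool of RNA from 2 to 4 mice. The labels mention Balb/c males but not the matings, and give no age for the dams.

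NF-kappaB dimers are held in the cytoplasm by inhibitors of the IkappaB family. Signals from the T cell receptor with CD28, from interleukin 1 family receptors and from tumour necrosis factor receptors activate the IkappaB kinase complex, which marks the inhibitor for destruction and frees dimers such as those of c-Rel. These dimers switch on the genes of their own inhibitors, which closes a feedback loop. A second, non-canonical route runs through the kinase NIK, kept scarce by TRAF3 until receptors such as CD40 or the lymphotoxin beta receptor are engaged. In Treg, c-Rel takes part in switching on Foxp3 during their development in the thymus.

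The promoter windows of the 4 measured genes that are known NF-kappaB targets are shown first, because the kappaB element is what ties inhibitor genes to NF-kappaB in the feedback loop. A window covers 250 bases before and 50 after a RefSeq transcript start (GRCm38.p6, gene strand, 5′ to 3′), and capitals mark matches to the kappaB consensus, the decamer bound by NF-kappaB dimers, searched on both strands.
Tnip1: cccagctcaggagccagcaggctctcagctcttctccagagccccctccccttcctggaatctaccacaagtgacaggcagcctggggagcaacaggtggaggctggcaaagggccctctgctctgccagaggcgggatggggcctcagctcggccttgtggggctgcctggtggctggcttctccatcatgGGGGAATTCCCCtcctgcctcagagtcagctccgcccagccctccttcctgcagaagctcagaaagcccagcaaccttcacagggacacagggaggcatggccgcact
Tnfaip3: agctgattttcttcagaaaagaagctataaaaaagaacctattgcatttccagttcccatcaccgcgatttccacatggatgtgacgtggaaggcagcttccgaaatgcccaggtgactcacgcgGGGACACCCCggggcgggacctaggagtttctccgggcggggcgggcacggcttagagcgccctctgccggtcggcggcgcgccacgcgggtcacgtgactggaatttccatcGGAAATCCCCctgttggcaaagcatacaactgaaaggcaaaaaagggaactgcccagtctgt
Nfkbia: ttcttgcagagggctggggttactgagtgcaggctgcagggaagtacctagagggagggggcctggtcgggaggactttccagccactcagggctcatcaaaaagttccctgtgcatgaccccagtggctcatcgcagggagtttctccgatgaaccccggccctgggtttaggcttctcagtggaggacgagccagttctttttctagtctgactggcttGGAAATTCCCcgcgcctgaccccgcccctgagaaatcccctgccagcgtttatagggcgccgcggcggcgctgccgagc
Rel: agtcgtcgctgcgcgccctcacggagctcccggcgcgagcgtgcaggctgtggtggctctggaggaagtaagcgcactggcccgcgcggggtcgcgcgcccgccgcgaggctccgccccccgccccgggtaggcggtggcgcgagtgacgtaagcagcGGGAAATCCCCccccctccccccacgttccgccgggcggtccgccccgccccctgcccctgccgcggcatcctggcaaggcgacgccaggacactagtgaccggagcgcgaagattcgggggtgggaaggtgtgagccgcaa

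Tnip1 lies on the minus strand with its window at chr11:54962891-54963190 and holds 1 site of 12 bases, made of overlapping matches on both strands, 58 to 47 bases before the start. Tnfaip3, also on the minus strand (chr10:19015361-19015660), holds 2 sites, at 125 to 116 and 12 to 3 bases before the start. A second Tnfaip3 window, for another start, holds none. Nfkbia (minus strand, chr12:55492598-55492897) holds 1 site at 29 to 20 bases, and Rel (minus strand, chr11:23770920-23771219) 1 site of 11 bases at 92 to 82. The window of Traf3 also holds 1 match, at 10 to 1 bases before the start, whereas those of Traf5 and Map3k14 hold none. All 7 genes had a window in the RefSeq table, and 5 of them held the consensus. The consensus was present in 8.46% of the 32851 windows of the table, and in at least 1 window of 9.55% of its 27025 genes. A match is a run of letters and was not tested for binding.

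**Figure D1:**
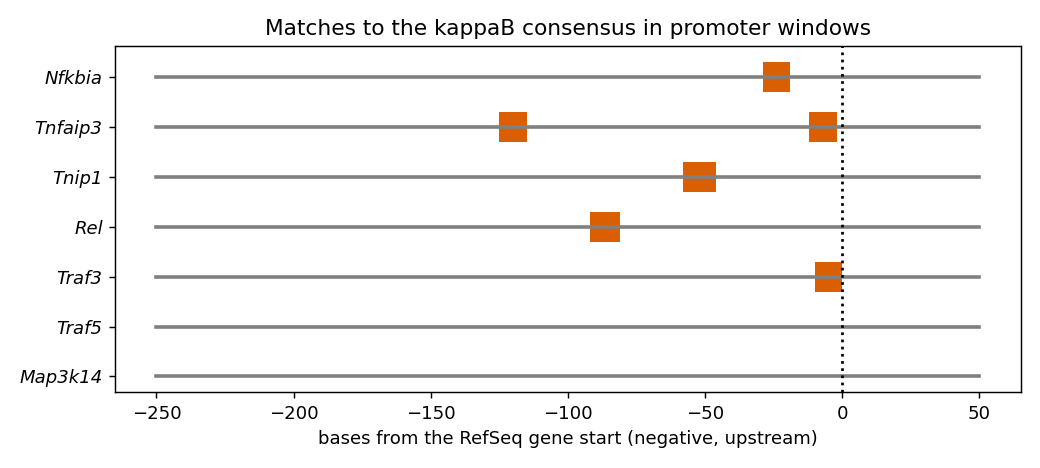
Matches to the kappaB consensus (orange boxes) in the promoter windows of the 7 genes; the x axis gives bases from the RefSeq transcript start (dotted line), negative values lying upstream, and grey lines are the windows, of which the first is drawn for Tnfaip3. Tnfaip3 has 2 matches, Nfkbia, Tnip1, Rel and Traf3 have 1 each, and Traf5 and Map3k14 have none.

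Values are the authors' log2 expression values, and differences are IL10-/- minus IL10+/+. Their standard error (SE) and p-values come from limma fitted across all 6986 genes, with Benjamini-Hochberg adjustment over all of them and a threshold of 0.05. The array medians lay between 6.97 and 7.12. The arrays IL10-/- replicate 2 and IL10+/+ replicate 4 stood apart, with interquartile ranges of 2.15 and 2.17, where the remaining arrays had 2.32 to 2.58, and scores of 16.6 and 17.8 on the first principal component, where the remaining arrays had -13.3 to -2.72. Il10 itself, the targeted gene, read 9.35, 8.65, 9.42 and 9.25 in IL10-/- replicates 1 to 4, against 8.27, 8.51, 8.14 and 7.50 in IL10+/+ replicates 1 to 4 (difference 1.06, SE 0.22; limma, adjusted p = 0.405). The signal was thus higher in every array labelled IL10-/-. Which part of Il10 is mutated is not given in the labels, so a probe set outside it checks nothing, and IL10-/- and IL10+/+ stand for the labels throughout. By limma, 2 of all 6986 genes passed the threshold (0.0286%), both higher and neither of them among the genes described here. They were Ctse (difference 2.84, SE 0.12; limma, adjusted p = 8.33e-07) and Efcab2 (1.35, SE 0.16; limma, adjusted p = 0.0201). Both lie on chromosome 1, as do Il10 and Traf5. Chromosomes 1 and 10 to 15 held 99.6% of the placed genes. In pooled RNA of a sorted fraction, fewer cells of a type and less RNA per cell cannot be told apart.

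None of the 6 genes passed the test (limma, smallest adjusted p = 0.777). The values of 5 were on average lower in the IL10-/- arrays and 1, Rel, was on average higher, with a median difference of -0.16, against a median of 0.0025 and a share of 49.2% below 0 over all genes. At an unadjusted p under 0.05, 1 of the 6 was called, Tnip1, where limma called 4.78% of all genes, 1.59% in the lower direction. The groups did not overlap for 1 of the 6, again Tnip1, where 2.92% of all genes did not overlap and 1.09% did so with the IL10-/- arrays lower.

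**Figure D2:**
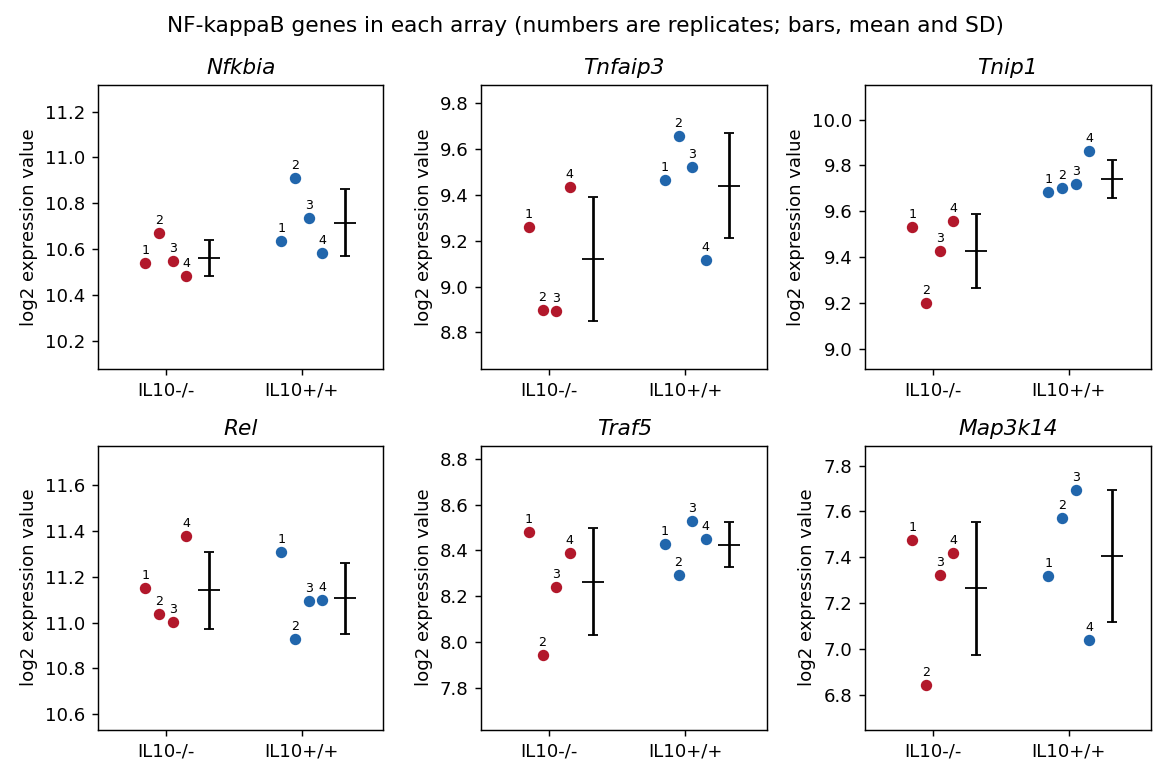
Log2 expression values (y axis, the same span of log2 units in each panel) of the 6 measured genes in each IL10-/- (red) and IL10+/+ (blue) array, numbered by replicate; bars show the mean and SD of the 4 arrays. For Tnip1 all 4 IL10-/- arrays lie below all 4 IL10+/+ arrays, and in the other panels the groups overlap.

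With all 8 arrays, Tnip1 showed the clearest separation among the inhibitors. It encodes ABIN1, a ubiquitin-binding protein that brings the deubiquitinase A20 to its substrates. Tnip1 read 9.53, 9.20, 9.42 and 9.56 in IL10-/- replicates 1 to 4, against 9.68, 9.70, 9.72 and 9.86 in IL10+/+ replicates 1 to 4. Every IL10-/- array was below every IL10+/+ array, with a gap of 0.13 between the nearest values of the groups. Tnip1 averaged 9.43 ± 0.16 in IL10-/- and 9.74 ± 0.08 in IL10+/+ arrays (SD, n = 4 each). The difference was -0.31 (SE 0.11, 95% interval -0.55 to -0.07), or 0.805 of the IL10+/+ level. Permuting the arrays exactly, with 70 possible assignments and both sides counted, gave p = 0.0286, the smallest it allows, among 6 such tests. By limma the unadjusted p was 0.0148 and the adjusted p was 0.777, so that Tnip1 did not pass over all genes, among which it ranked 133rd by p.

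IL10-/- replicate 2 was the lowest array for Tnip1 and IL10+/+ replicate 4 the highest. Without both, the difference was -0.20 (limma, unadjusted p = 0.0757), and with any 1 array left out it lay between -0.36 and -0.24.

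Tnfaip3 encodes A20, which removes and edits the ubiquitin chains that carry the signal to the IkappaB kinase. It read 9.26, 8.90, 8.89 and 9.43 in IL10-/- replicates 1 to 4, against 9.46, 9.66, 9.52 and 9.12 in IL10+/+ replicates 1 to 4. All 4 IL10-/- arrays lay below the IL10+/+ median, but the groups overlapped, through IL10+/+ replicate 4. The difference was -0.32 (SE 0.16, 95% interval -0.67 to 0.03), close in size to that of Tnip1 with a wider spread within groups, SD 0.27 in IL10-/- and 0.23 in IL10+/+ arrays (n = 4 each). It passed neither the exact permutation test (p = 0.143) nor limma (unadjusted p = 0.0685, adjusted p = 0.999). With any 1 array left out, the Tnfaip3 difference lay between -0.43 and -0.24 (limma, unadjusted p from 0.0180 to 0.181). Without both arrays that had stood apart it was -0.35 (limma, unadjusted p = 0.0433, adjusted p = 0.869), where that of Tnip1 was -0.20.

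Nfkbia encodes IkappaB alpha, the inhibitor that is degraded first and resynthesised under NF-kappaB control. It read 10.54, 10.67, 10.55 and 10.48 in IL10-/- replicates 1 to 4, against 10.63, 10.91, 10.73 and 10.58 in IL10+/+ replicates 1 to 4. The spread was narrow, and 3 of 4 IL10-/- arrays lay below all IL10+/+ arrays. The difference was -0.15 (SE 0.10, 95% interval -0.39 to 0.08), with an exact permutation p = 0.114, and did not pass limma (adjusted p = 0.999). IL10+/+ replicate 2 held the highest value, and without it the difference was -0.09, against -0.24 without both arrays that had stood apart.

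The subunit Rel, which encodes c-Rel, did not separate the groups. It read 11.15, 11.04, 11.00 and 11.38 in IL10-/- replicates 1 to 4, against 11.31, 10.93, 11.09 and 11.10 in IL10+/+ replicates 1 to 4. Each group had 1 high array, IL10-/- replicate 4 and IL10+/+ replicate 1. Rel averaged 11.14 ± 0.17 in IL10-/- and 11.11 ± 0.16 in IL10+/+ arrays (SD, n = 4 each), and the difference of 0.035 (SE 0.12) had a 95% interval of -0.23 to 0.30 (exact permutation p = 0.743; limma, adjusted p = 0.999). That interval runs from 0.853 to 1.23 times the IL10+/+ level. The difference was -0.020 under quantile normalization, -0.043 without IL10-/- replicate 4, -0.024 without IL10+/+ replicate 2 and 0.10 without IL10+/+ replicate 1.

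Of the upstream genes, Traf5 encodes an adaptor used by costimulatory receptors of the tumour necrosis factor receptor family. It read 8.48, 7.95, 8.24 and 8.39 in IL10-/- replicates 1 to 4, against 8.43, 8.29, 8.53 and 8.45 in IL10+/+ replicates 1 to 4. IL10-/- replicate 2 was the lowest array and the highest IL10-/- array exceeded 3 of the IL10+/+ arrays. The difference was -0.16 (SE 0.13, exact permutation p = 0.229; limma, adjusted p = 0.999) and was -0.06 without IL10-/- replicate 2 and -0.05 without both arrays that had stood apart.

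Map3k14 encodes NIK, the kinase of the non-canonical route. It read 7.47, 6.84, 7.32 and 7.42 in IL10-/- replicates 1 to 4, against 7.32, 7.57, 7.69 and 7.04 in IL10+/+ replicates 1 to 4. The lowest value of each group came from the array that stood apart. The difference was -0.14 (SE 0.17, exact permutation p = 0.543; limma, adjusted p = 0.999), with values of 0.0010 without IL10-/- replicate 2 and -0.26 without IL10+/+ replicate 4. With neither of those arrays it was -0.12. The signal was dim. The 95th percentile of 230 olfactory receptor genes, taken as array background, was 6.97 to 7.26 across the arrays, and Map3k14 lay below the percentile of its own array in IL10-/- replicate 2 (6.84, percentile 7.26) and IL10+/+ replicate 4 (7.04, percentile 7.22).

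**Figure D3:**
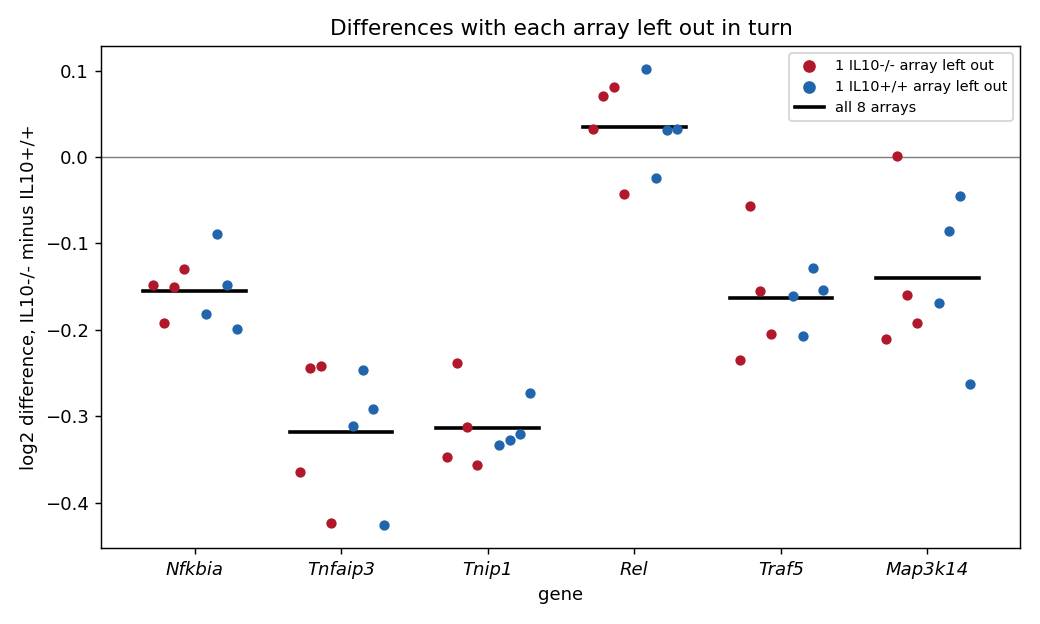
Log2 difference of each gene, IL10-/- minus IL10+/+ (y axis), with all 8 arrays (black bar) and with 1 IL10-/- (red) or 1 IL10+/+ (blue) array left out. Tnip1 stays between -0.36 and -0.24 and Tnfaip3 between -0.43 and -0.24, whereas the values of Rel and Map3k14 reach both sides of 0.

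The genes varied between arrays in ways that did not follow the genotype alone. Over the 8 arrays Tnip1 and Traf5 had Pearson's r = 0.81 and Spearman's rho = 0.64 (exact permutation p = 0.0183 and 0.0962, adjusted p over 15 pairs 0.216 and 0.481). With the 2 arrays farthest from the median of Tnip1 left out, which were the 2 that stood apart, r was 0.47. Tnfaip3 and Map3k14 had r = 0.75 and rho = 0.69 (exact permutation p = 0.0288 and 0.0694, adjusted p = 0.216 and 0.481), and r was 0.76 without the 2 arrays farthest from the median of Tnfaip3 and 0.59 without the 2 that stood apart. Nfkbia and Rel, inhibitor and subunit, had r = -0.62 and rho = -0.64 (exact permutation p = 0.102 and 0.0962, adjusted p = 0.297 and 0.481), and r was -0.37 without the 2 farthest arrays and -0.64 without the 2 that stood apart. Without the 2 that stood apart, Tnfaip3 and Tnip1 had r = 0.91, against 0.61 with all arrays and -0.21 without the 2 arrays farthest from the median of Tnfaip3. Of the 15 pairs, 13 had a positive r and 0 passed the adjustment by either measure, with 2 at an unadjusted p under 0.05 by r and 0 by rho. Taken as deviations from the group means, r was 0.84 for Tnip1 with Traf5, 0.77 for Tnfaip3 with Map3k14 and -0.69 for Nfkbia with Rel. For Tnfaip3 with Tnip1 it was only 0.28. Groups of 4 arrays are too small for a value within each group.

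The immediate early genes, which respond within minutes to receptor signals and to tissue handling, were on average lowest in the 2 arrays that stood apart. The mean over 13 measured of 35 named genes was 9.43, 8.79, 9.38 and 9.42 in IL10-/- replicates 1 to 4, against 9.47, 9.37, 9.50 and 9.15 in IL10+/+ replicates 1 to 4. The lowest array of each group was the one that stood apart, as for Map3k14. Traf5 was lowest in IL10-/- replicate 2 but not in IL10+/+ replicate 4 (8.45, group mean 8.43), where Tnip1 was highest (9.86). Of the 13 genes, 10 were on average lower in IL10-/- arrays, with a median difference of -0.09 and 0 past the threshold. That median was 0.0086 without IL10-/- replicate 2 and -0.24 without IL10+/+ replicate 4. The genes of smallest p were Rgs1, a brake on G protein signalling (difference 0.20, SE 0.11), and the chaperone gene Hsp90aa1 (0.17, SE 0.10). The part of these genes in the differences of Tnfaip3, Traf5 and Map3k14 was not tested.

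**Figure D4:**
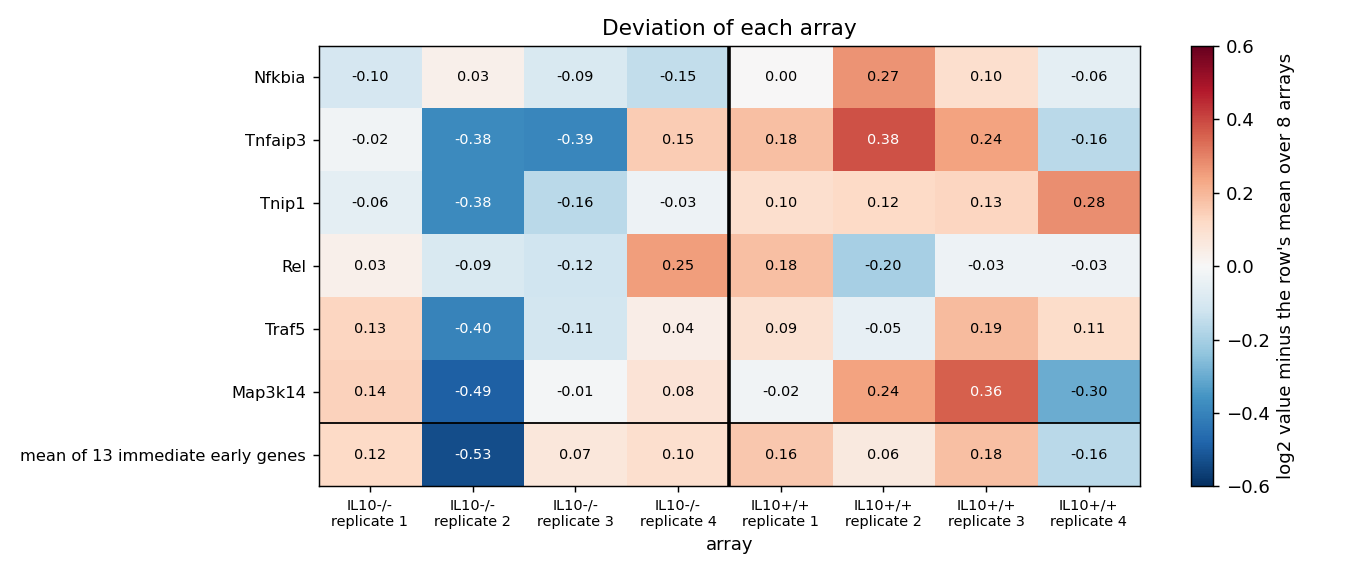
Log2 value of each gene in each array minus that gene's mean over the 8 arrays (colour scale and printed values, log2 units), with the mean of 13 immediate early genes in the bottom row; IL10-/- arrays are left of the black line. IL10-/- replicate 2 is low for Tnfaip3, Tnip1, Traf5, Map3k14 and the mean of the immediate early genes, and Nfkbia and Rel stay near their means there.

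The remaining genes of the pathway, from lists that also hold the 6 genes, did not pass the threshold. In the IkappaB family 2 of 8 named genes were measured, and Nkiras1, which encodes a Ras-like protein that binds IkappaB proteins, differed by 0.03 (SE 0.13). Among IkappaB kinases and kinases upstream of them, 6 of 17 were measured with a median of -0.12, which was 0.0044 without IL10-/- replicate 2 and -0.038 without IL10+/+ replicate 3. Tab1 and Tab2, subunits that bind the kinase TAK1, differed by -0.18 (SE 0.17) and -0.14 (SE 0.12). Among TRAF adaptors and their partners, 6 of 17 were measured with a median of -0.11, and 5 of the 6 differences were negative. Without IL10-/- replicate 2 that median was 0.019. The exception was Traf3ip2, which encodes the interleukin 17 receptor adaptor Act1, at 0.22 (SE 0.12). Of the ubiquitin editors and feedback inhibitors 5 of 20 were measured, with a median of -0.07. Its genes of smallest p were Tnip1 and Tnfaip3.

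Of 26 named receptors 7 were measured, with 5 of 7 differences positive and a median of 0.06. That median was -0.035 without IL10-/- replicate 2, -0.024 without IL10+/+ replicate 2 and -0.014 under quantile normalization. Of the 7 receptor genes, 4 averaged below 7.26, the highest olfactory receptor percentile of any array, 3 of the 5 positive ones among them. Il1r1, the interleukin 1 receptor, averaged 9.70 ± 0.51 in IL10-/- and 8.80 ± 0.52 in IL10+/+ arrays (SD, n = 4 each). Its difference was 0.91 (SE 0.29), with an unadjusted p of 0.0092 that did not pass over all genes (limma, adjusted p = 0.742). Tnfrsf13b, the receptor TACI, differed by -0.14 (SE 0.14). All 3 measured ligand genes of 17 were on average higher, with a median of 0.18. Tnfsf18, the ligand of GITR, differed by 0.34 (SE 0.20) and Tnfsf4, the ligand of OX40, by 0.18 (SE 0.15). Tnfsf18 averaged 5.15 in IL10-/- and 4.81 in IL10+/+ arrays, below the olfactory receptor percentile. Tnfrsf13b, at 6.50 in IL10-/- and 6.64 in IL10+/+ arrays, also averaged below it. Tnfsf4, at 7.03 in IL10-/- and 6.85 in IL10+/+ arrays, likewise averaged below the highest percentile of 7.26. None of the measured receptor and ligand genes passed the threshold.

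**Figure D5:**
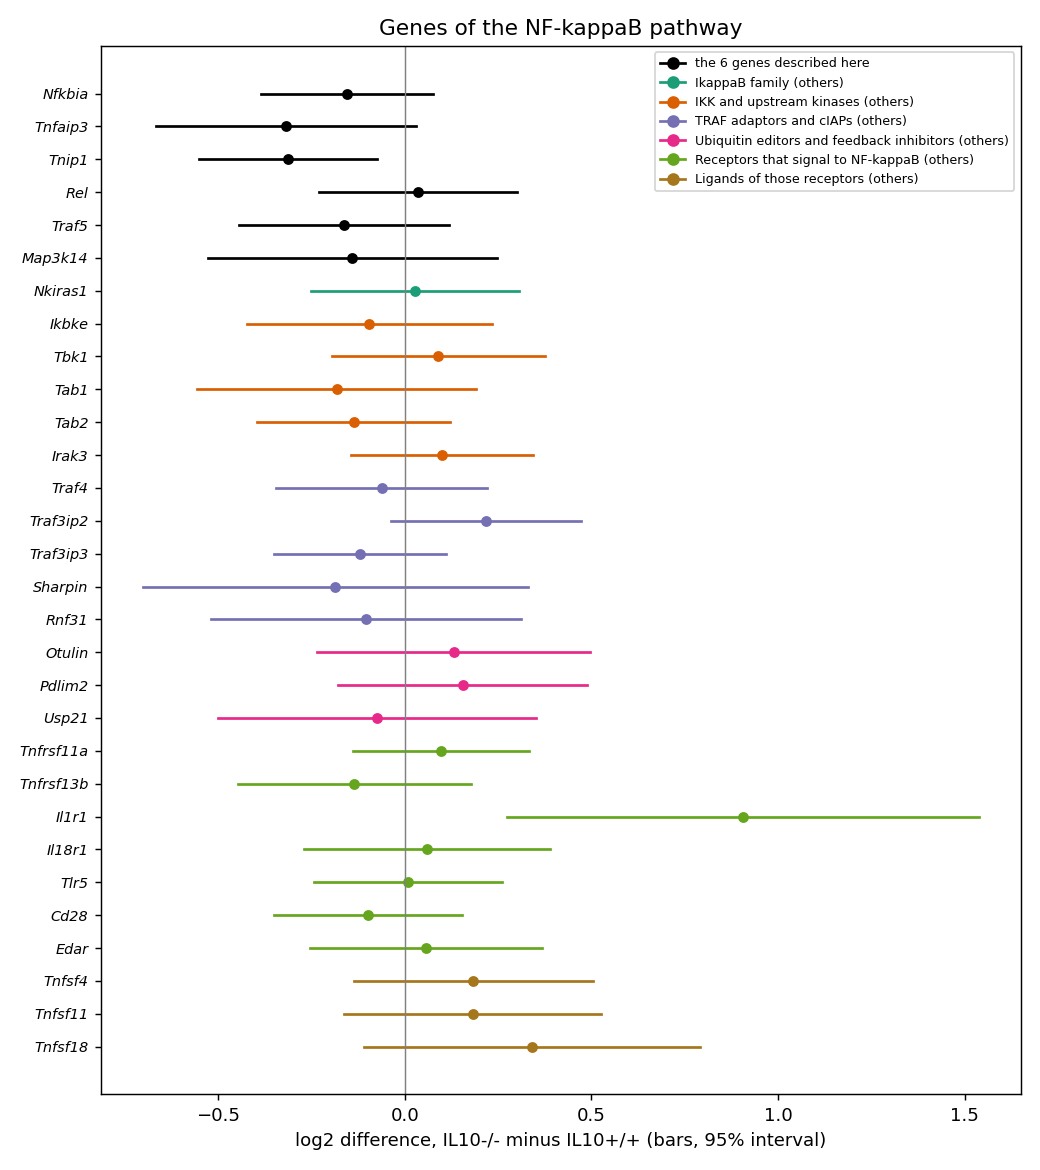
Log2 difference, IL10-/- minus IL10+/+ (x axis), of the 6 genes (black) and of the other measured genes of the pathway, coloured by role; bars are 95% intervals from limma. The intervals of Tnip1 and Il1r1 leave out 0, and neither gene passed the adjustment over all genes.

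The differences of genes that NF-kappaB is known to switch on were mostly negative and small, none of them past the threshold. Of 59 named targets 26 were measured, Nfkbia, Tnfaip3, Tnip1 and Rel among them, and 20 of the 26 differences were negative with a median of -0.07, which was -0.036 without IL10-/- replicate 2. Without those 4, 17 of 22 were negative with a median of -0.06, against 49.2% negative over all genes. Sizes were small. Among targets named after their values were seen, the chemokine gene Ccl20 differed by -0.23 (SE 0.12), the activation marker gene Cd83 by -0.23 (SE 0.15) and the chemokine gene Ccl3 by 0.37 (SE 0.21). Ccl20 and Ccl3 averaged below the highest olfactory receptor percentile, as did 9 of the 26 measured targets in all, 6 of them with a negative difference. The wider set of 580 tested genes with the kappaB consensus in a promoter window, chosen after the data were seen, had a median of -0.0005 with 50.2% of differences negative, against a median of 0.0031 and 48.8% in the 4722 tested genes whose windows held none.

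For each of the 6 genes the 3 named genes with the most similar profile over the 8 arrays were taken by Pearson's r. For Tnip1 these were Slc22a21, Tgfbrap1 and Git1 (r = 0.95, 0.95 and 0.94). For Tnfaip3 they were Ccnt2, Kansl1 and Dhrs13 (0.97, 0.97 and 0.95), and for Nfkbia Naglu, Utp23 and Mcpt9 (0.92, 0.91 and 0.91). For Rel they were Fam13c, Mcmdc2 and Pgam2 (0.94, 0.92 and 0.91), for Traf5 Enc1, Egr2 and Dnajc14 (0.97, 0.94 and 0.94), and for Map3k14 Mprip, Trak2 and Zap70 (0.985, 0.98 and 0.97). Over all genes the median r with the best of 5796 candidates was 0.96 and with the third best 0.94, so the best values of Nfkbia, Rel and Tnip1 lay below that median and those of Tnfaip3, Traf5 and Map3k14 above it. Dim signals limit these likenesses. The 3 genes taken for Rel, and also Mcpt9, Slc22a21 and Dhrs13, averaged below 7.26, the highest olfactory receptor percentile, in both groups. Egr2 is an immediate early gene, and Zap70 encodes the proximal kinase of the T cell receptor. Without the 2 arrays that stood apart, r fell to 0.74 for Traf5 with Egr2 and to 0.89 for Map3k14 with Zap70. Other pairs fell or rose, as did Rel with Fam13c, to 0.98.

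The labelled cell type could be checked only in part. Of 30 markers of CD4 T cells and Treg 7 were measured, and Foxp3, Il2ra and Cd4 were not analysed here. Ctla4, an inhibitory receptor of Treg, averaged 11.22 ± 0.23 in IL10-/- and 11.32 ± 0.15 in IL10+/+ arrays, and Ikzf2, the transcription factor Helios, averaged 11.35 ± 0.15 in IL10-/- and 11.54 ± 0.15 in IL10+/+ arrays (SD, n = 4 each). The mean log2 value of the 7 markers was 10.88 to 11.17 in IL10-/- arrays and 11.07 to 11.20 in IL10+/+ arrays. B cells also use the pathway, and 8 of 20 B cell markers were measured. Of these 7 were on average higher, with a median difference of 0.14 and a mean log2 value of 7.62 to 7.84 in IL10-/- and 7.50 to 7.70 in IL10+/+ arrays. Summed on the linear scale, the 8 B cell markers gave a signal of 4146 to 6679 in IL10-/- and 4281 to 6032 in IL10+/+ arrays. Most of that sum was Ighm, which averaged 12.13 in IL10-/- and 11.97 in IL10+/+ arrays, above Ctla4 and Ikzf2. The next brightest, Cd79b, averaged 8.72 in IL10-/- and 8.45 in IL10+/+ arrays, so the sum says little of the other B cell markers. The 8 of 27 macrophage, monocyte and dendritic cell markers had a median difference of 0.12, which was 0.0021 without IL10-/- replicate 2 and -0.014 without both arrays that had stood apart, with summed signals of 1268 to 1767 in IL10-/- and 1264 to 1623 in IL10+/+ arrays. Medians were -0.08 for 7 of 18 neutrophil and granulocyte markers, 0.11 for 2 of 10 CD8 T cell and NK cell markers, -0.09 for 7 of 19 stromal and endothelial markers and 0.07 for 2 of 11 red cell and platelet markers. No marker of these lists passed the threshold. Below the highest olfactory receptor percentile of 7.26 averaged 7 of 7 neutrophil and granulocyte markers. So did 6 of 7 stromal and endothelial markers and 2 of 2 red cell and platelet markers. Their part in the differences of the 6 genes was not tested.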

How the data were processed

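Per the series' design text, the authors computed the deposited log2 values in Partek, using RMA for the background, correcting for GC content and averaging each set's probes. Affymetrix Expression Console appears in the submitters' processing notes. No version or genome build of that step is known here. The annotation gave 1 gene for 7358 of the 16378 probe sets, several for 456 and none for 8564. Entrez identifiers led to RefSeq symbols (GRCm38.p6) for 7310. Among the 6986 genes, 284 had several probe sets, and the brightest on average was kept. Chromosomes 1 and 10 to 15 held 99.6% of the 6942 placed genes, so the lists were measured in part.

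The 4 IL10-/- and 4 IL10+/+ arrays were compared with limma 3.58.1 (lmFit, eBayes without trend) in R 4.3.3, without a filter on signal, and with exact permutation tests in scipy 1.17.1. The limma code was tested on simulated data. The number of arrays limits the precision. Replicates are pools of animals. The labels state no pairing by the numbers 1 to 4, and none was used. Same-numbered arrays correlated between -0.32 and 0.05 in their deviations. That cannot exclude a pairing, since the 2 arrays that stood apart shaped these values (r = 0.46 with each other). The genes and lists were chosen with earlier results of these data known. Besides the 6 genes, the text names the 2 genes of smallest p in each pathway list other than the targets, the 3 most similar profiles per gene, Ctla4 and Ikzf2, and the genes past the threshold over all genes. The targets Ccl20, Cd83 and Ccl3 were named after their values were seen. Further genes are named where an array was flagged. Alternatives covered normalization, variance model, array weights, a filter on dim genes, probe set choice, the features tested, a replicate block and arrays left out. Promoter windows are RefSeq's.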

Additional observations from a re-analysis of the deposited data

Results flagged for a closer look

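In 238 groups of 4 arrays, 2 for each of the 119 genes of the lists and similar profiles, the highest or lowest array lay far from the other 3 in 19 cases, judged by the gap to the nearest array over the range of the group. Chance flags about 1 in 20 groups. None of the 19 was a value of the 6 NF-kappaB genes themselves. IL10-/- replicate 2 accounted for 14 of them. It was the lowest array of its group for the pathway genes Ikbke (9.03, next array 9.42) and Cd28 (9.77, next 10.06), the NF-kappaB targets Gadd45b (8.62, next 9.50) and Cd83 (8.15, next 8.64), and the immediate early genes Btg1 (9.84, next 10.37), Btg2 (9.84, next 10.78) and Zfp36l1 (9.68, next 10.83). It was also lowest for the T cell genes Ctla4 (10.88, next 11.29), Il2rb (10.22, next 11.24) and Zap70 (9.32, next 9.95), for Slc22a21 (5.41, next 5.78) and for the B cell marker Ighm (11.47, next 12.29). It was highest for the B cell marker Ebf1 (6.92, next 6.35) and for Naglu (7.53, next 7.29). In IL10-/- replicate 4, Rgs1 was high at 10.57. In the IL10+/+ group, Sparc was high in replicate 1 (6.87), Naglu high (7.86) and Plau low (6.90) in replicate 2, and Mpo high in replicate 4 (6.84).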

How the results depend on the processing

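Each of the 6 differences was recomputed under 18 alternatives. None of these 108 values passed the threshold (smallest adjusted p = 0.608), and 4 changed sign. These were Rel under quantile normalization (-0.020, with an exact permutation p of 0.800), without IL10-/- replicate 4 (-0.043) and without IL10+/+ replicate 2 (-0.024), and Map3k14 without IL10-/- replicate 2 (0.0010). The causes were not tested. With 1 array left out, differences ranged from -0.36 to -0.24 for Tnip1, -0.43 to -0.24 for Tnfaip3, -0.20 to -0.09 for Nfkbia, -0.043 to 0.10 for Rel, -0.23 to -0.06 for Traf5 and -0.26 to 0.0010 for Map3k14. Without the 2 arrays that stood apart they were -0.20 for Tnip1, -0.35 for Tnfaip3, -0.24 for Nfkbia, 0.07 for Rel, -0.05 for Traf5 and -0.12 for Map3k14. The number of genes past the threshold, 2 with all arrays, was 1 with array medians subtracted, with array weights, with every row of the table tested, with the replicate block and without both arrays that stood apart, and 1 to 4 with 1 array left out. The replicate block changed no call of the 6 genes. In the labels the arrays of a block shared only a number, and 0 of 8 arrays correlated best with the array of their own number. Of the 15 pairs of genes, 13 had a positive r with all arrays, 6 without the 2 arrays farthest from the median of the first gene of a pair, which differ between pairs, and 12 both in deviations from group means and without the 2 arrays that stood apart. The median of the ubiquitin editors was 0.07 without IL10+/+ replicate 4 and 0.10 without both arrays that stood apart, where that of the B cell markers was 0.02. Without IL10-/- replicate 2, list medians turned sign for the IkappaB kinases (0.0044), the TRAF adaptors (0.019), the receptors (-0.035), the immediate early genes (0.0086) and the CD4 T cell and Treg markers (0.0070), and that of the macrophage, monocyte and dendritic cell markers was 0.0021. At an unadjusted p under 0.05, 334 of the genes and 760 of all rows of the table were called. Permutation tests were not repeated with arrays left out, as their smallest p would then be larger. Dim signals limit Map3k14 in its lowest arrays. They also limit the lists, since 4 of 7 receptors, 2 of 3 ligands, 9 of 26 targets, 4 of 8 B cell markers and 5 of 8 macrophage, monocyte and dendritic cell markers averaged below 7.26. The same held for 7 of 7 neutrophil and granulocyte, 6 of 7 stromal and endothelial and 2 of 2 red cell and platelet markers.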
